A study of Gallus gallus with 3 samples.

Results

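Ribosomal protein genes code for the structural proteins of the large (RPL) and small (RPS) ribosomal subunits and of the acidic stalk (RPLP0, RPLP1 and RPLP2), the flexible arm through which translation factors reach the ribosome. Each ribosome holds nearly every such protein in a single copy. Most of the mRNAs start with a terminal oligopyrimidine (TOP) tract through which growth signals set their translation. In growing embryonic tissue they are among the most abundant mRNAs, and a few have paralogs with a narrower pattern. They were described here in the forelimb of the chicken embryo by single-cell RNA-sequencing at embryonic day 4 (E4), E6 and E10.

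The members were the genes whose symbol starts with RPL or RPS and a digit, with the RPS6K kinases left out, plus the stalk genes. The rule found 68 of the 24356 genes counted: 40 RPL genes, 24 RPS genes, 3 stalk genes and RPS19BP1, which codes for a protein that binds RPS19 and is caught by its symbol alone. No member was chosen for its level. The gene of the small-subunit protein RPSA is annotated under the symbol RPSAP58, and FAU and RACK1 also code for proteins of the ribosome, so these 3 genes fell outside the rule. Ribosomal proteins without a row under their usual symbol, such as RPS27 and RPL36A, were not analysed here.

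Whole forelimbs of 2 E4, 3 E6 and 3 E10 embryos were dissociated, and the cells of a stage were pooled into 1 library. No genotype or treatment is given, and the embryo of each cell is not recorded. A cell was a barcode with at least 1000 (E4), 700 (E6) or 450 (E10) UMIs, unique molecular identifiers that each stand for 1 captured mRNA molecule. That left 5235 E4 cells with 20792790 UMIs, 4237 E6 cells with 10257724 UMIs and 27361 E10 cells with 33333046 UMIs, and medians of 3645, 2216 and 1081 UMIs per cell. With 1 library per stage no difference has a replicate check, and no p-value is given. Intervals are 95% exact Poisson limits for levels and 95% exact binomial (Clopper-Pearson) limits for shares. For a difference between the shares of 2 classes they are symmetric 95% limits that take the classes as separate cells. All intervals cover counting error only. A level summed over all cells does not tell fewer cells of a type from less RNA per cell.

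Several properties of the libraries touch the values below. Cells held 91.3%, 68.4% and 71.7% of the library's UMIs at E4, E6 and E10, and the E10 barcodes that passed the minimum far outnumbered the 5000 cells loaded. Mitochondrial transcripts took 6.04%, 8.38% and 8.43% of the cells' UMIs at E4, E6 and E10, and haemoglobin transcripts 0.157%, 0.0446% and 1.5%. Between 13 and 35 cell barcodes were shared by any pair of libraries and 0 by all 3. Transcripts of the W chromosome, which only female birds carry, separated the libraries: 99.5% of E4 cells, 12.2% of E6 cells and 2 cells at E10 had at least 2 UMIs of the W genes Wpkci-7 and SPIN1W. Stage and the sex of the embryos therefore cannot be told apart between E4 and E10.

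The ribosomal protein genes took a similar share of all UMIs at every stage. Their share of the cells' UMIs was 19.4% (19.37 to 19.40), 21.1% (21.05 to 21.10) and 20.2% (20.14 to 20.17) at E4, E6 and E10. The highest share was thus at E6 and the lowest at E4, and the stages differed by less than the spread between cells of 1 library. The quartiles of the share per cell were 17.9 and 21.4% in E4 cells, 18.1 and 23.9% in E6 cells and 16.6 and 23.2% in E10 cells. The cells of the later stages were more unequal at both ends. The 5th percentile of the share was 15.4%, 10.1% and 8.78% at E4, E6 and E10, and the 95th percentile 24.1%, 28.7% and 27.8%. Barcodes of 10 to 100 UMIs, which hold free RNA, had shares of 19.8%, 26.7% and 23.9%. The free RNA had the same order of stages as the cells, and its part in the cells' share was not tested.

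**Figure D1:**
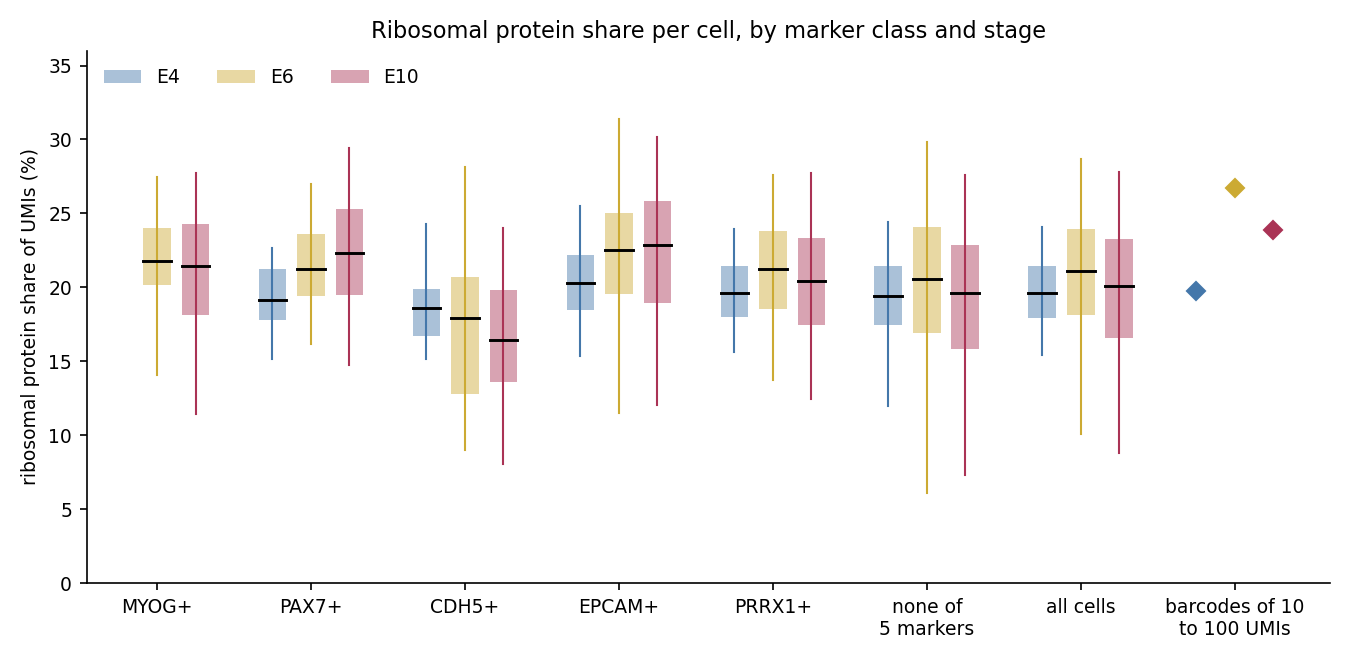
Ribosomal protein share of the UMIs of each cell (y axis, %) by marker class and stage, with boxes from the lower to the upper quartile, black lines at the median, thin lines over the 5th to 95th percentile, and diamonds for the pooled share of barcodes with 10 to 100 UMIs. The medians over all cells are 19.6%, 21.1% and 20.1% at the 3 stages, CDH5+ cells lie lowest at E10 and the lower tail is longest in cells with none of the 5 markers.

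The large subunit, the small subunit and the stalk did not follow the same order of stages. Large-subunit genes took 10.7%, 11.4% and 10.8% of UMIs. Small-subunit genes took 7.34%, 8.07% and 7.65% at E4, E6 and E10. Both were thus highest at E6. The 3 stalk genes took 1.32%, 1.63% and 1.70%, so their part of all ribosomal protein UMIs was 6.81%, 7.71% and 8.42%, higher at each later stage. Of the 3 genes only RPLP1 was higher at E10 than at E6, while RPLP2 had nearly the same level and RPLP0 a lower one.

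The levels of single members kept nearly the same order from stage to stage. In CPM (the gene's share of the UMIs of all cells of a library, per 1e6 UMIs), the median member had 2752 CPM at E4, 3045 CPM at E6 and 2943 CPM at E10. Over the 68 members Spearman's rho of the levels was 0.933 between E4 and E6, 0.962 between E6 and E10 and 0.904 between E4 and E10, as a description of genes that are not independent. The highest member was RPLP1, a stalk protein, at 7422 CPM at E4, 9454 CPM at E6 and 10946 CPM at E10. RPLP2, its stalk partner, had 4869, 5165 and 5138 CPM at E4, E6 and E10, and RPS19, RPS2 and RPL39 followed it by mean level. The 5 lowest members were RPL7L1, RPS27L, RPL26, RPS19BP1 and RPL3L, 4 of them under 160 CPM at every stage.

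Few of the ribosomal protein genes differed by more than 1.5-fold between stages. A gene entered a comparison with a mean of at least 50 CPM in its 2 groups, which 67 of the 68 members passed between stages (RPL3L did not), and was counted where the level differed by at least 1.5-fold. At E6 against E4, 3 of the 67 members were past that limit, all higher, against 16.7% of all 3190 genes compared (7.99% higher). The median log2 ratio of E6 over E4 was 0.08 for the members and -0.14 for all genes, and 54 of the 67 members lay above 0. At E10 against E6, 1 member was past the limit, lower, against 14.3% of all genes (6.7% lower), and the median was -0.08 for the members and -0.08 for all genes. At E10 against E4, 2 members were higher and 1 lower, against 33.9% of all genes (12.6% higher and 21.3% lower), with a median of 0.01 for the members and -0.25 for all genes. In PRRX1+ cells alone the counts were 3 higher at E6 against E4 (15.8% of all genes, 8.01% higher), 1 lower at E10 against E6 (18% of all genes, 7.92% lower), and 3 higher and 1 lower at E10 against E4 (37.7% of all genes, 14.2% higher and 23.5% lower). With ratios taken relative to the median gene, 5 members were past the limit at E6 against E4, all higher, and 6 at E10 against E4, all higher. With mitochondrial genes out of the total, 4 were higher and 1 lower at E10 against E4. The percentages of all genes above were taken without these changes and do not apply to these counts.

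**Figure D2:**
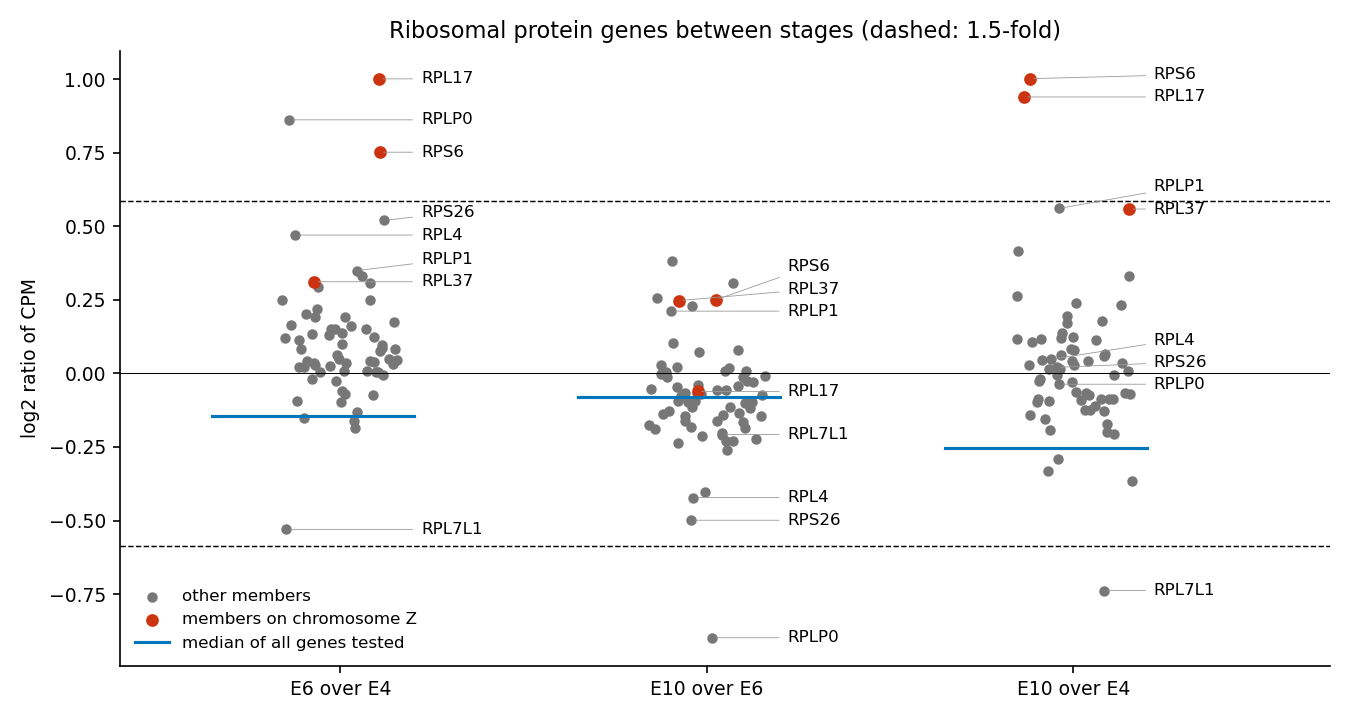
Log2 ratio of CPM (y axis) of each of the 67 members past the level filter in the 3 stage comparisons (x axis), with the members on chromosome Z in red, the median of all genes tested in blue and the 1.5-fold limits dashed. RPL17, RPLP0 and RPS6 lie past the limit at E6 over E4, RPLP0 lies below it at E10 over E6, and RPS6, RPL17 and RPL7L1 lie past it at E10 over E4.

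RPS6 and RPL17 were past 1.5-fold at both later stages against E4. RPS6, the small-subunit protein phosphorylated by S6 kinase downstream of mTOR, had 1905 CPM at E4 (1886 to 1924), 3206 CPM at E6 (3172 to 3241) and 3812 CPM at E10 (3792 to 3834). Its log2 ratio was 0.75 at E6 over E4 and 1.0 at E10 over E4. RPL17, which lines the exit tunnel of the large subunit, had 1851 CPM at E4 (1832 to 1870), 3703 CPM at E6 (3666 to 3741) and 3549 CPM at E10 (3528 to 3569). Its log2 ratios over E4 were 1.0 at E6 and 0.94 at E10. RPL37, another large-subunit protein, had 2297, 2850 and 3382 CPM at E4, E6 and E10 and stayed under the limit, with a log2 ratio of 0.56 at E10 over E4. In PRRX1+ cells alone RPL37 was just past it, at 0.61, and in all cells it was past it relative to the median gene.

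RPS6, RPL17 and RPL37 are the 3 members that the RefSeq table of the GRCg7b assembly places on chromosome Z, of which male birds have a pair and females a single copy. The Z genes as a whole, these 3 included, had a higher median ratio than other genes in the same comparisons. The median log2 ratio at E6 over E4 was 0.38 over 99 Z genes, 31 of them past the limit upward and 2 downward, and -0.16 over 2645 genes of other chromosomes. At E10 over E4 it was 0.44 over 102 Z genes and -0.27 over 2625 others.

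Within the E6 library the Z members RPL17 and RPS6 differed most of the members compared between cells with and without W transcripts. The 515 cells with at least 2 W-linked UMIs (W+) were set against the 3659 cells with 0 (W-), which come from the same library. RPL17 had 2056 CPM in W+ cells (1974 to 2140) and 3924 CPM in W- cells (3884 to 3966), a log2 ratio of -0.93. RPS6 had 2052 CPM in W+ cells (1970 to 2136) and 3356 CPM in W- cells (3318 to 3394), a log2 ratio of -0.71. RPL37 differed less, with 2464 CPM in W+ cells and 2899 CPM in W- cells, a log2 ratio of -0.23. It did not stand apart from members not placed on Z, such as RPS13 (-0.40), RPL22L1 (-0.30) and RPS25 (-0.26). RPL17 and RPS6 were the only 2 of 67 members past 1.5-fold in this comparison, against 8.01% of all genes (3.68% lower) and 42 of 105 Z genes lower.

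In W+ cells the E6 levels of these members were close to those at E4. E6 W+ cells against E4 gave log2 ratios of 0.11 for RPS6, 0.15 for RPL17 and 0.10 for RPL37. E6 W- cells against E4 gave 0.82, 1.08 and 0.34 for the same 3 genes. At E10 over E6 W- the log2 ratios were 0.18 for RPS6, -0.15 for RPL17 and 0.22 for RPL37, against a median of -0.10 over the members. RPS6 and RPL37 were thus higher at E10 than in E6 W- cells, and RPL17 was lower. How many embryos gave the W+ cells is not recorded, so the embryo and its sex cannot be told apart in them.

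**Figure D3:**
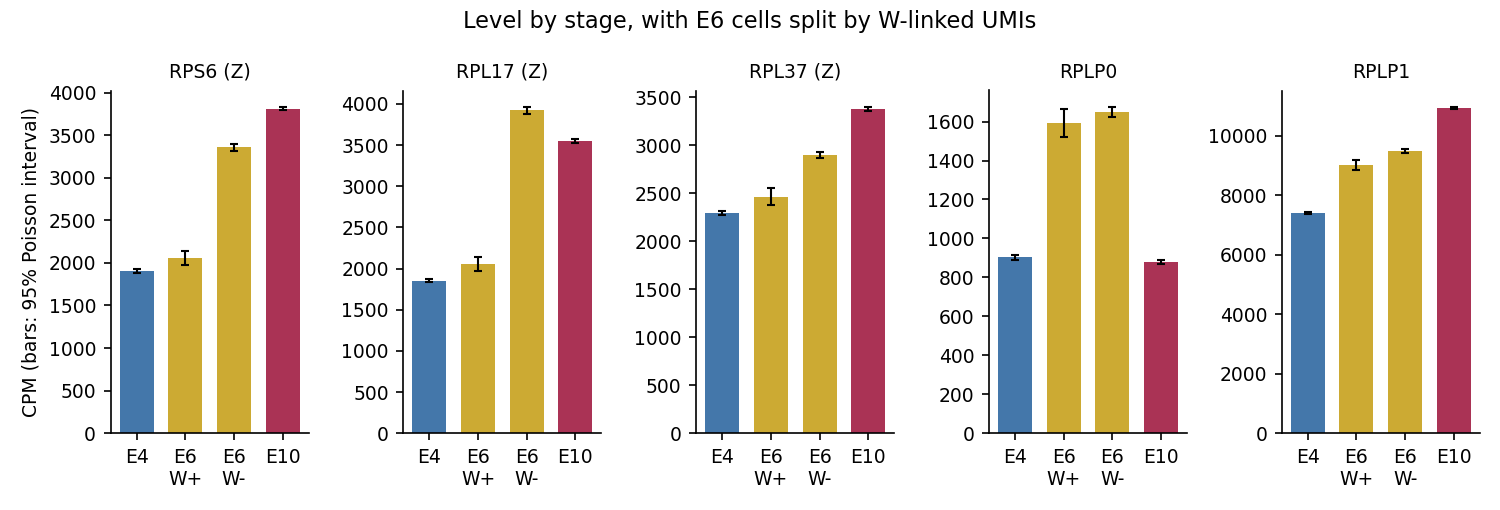
CPM (y axes, each from 0) of the 3 members on chromosome Z and of RPLP0 and RPLP1 at E4, in E6 cells with at least 2 W-linked UMIs (W+), in E6 cells with 0 (W-) and at E10, with 95% Poisson intervals. RPS6 and RPL17 are near their E4 level in E6 W+ cells and closer to their E10 than to their E4 level in E6 W- cells. RPLP0 is about as high in W+ as in W- cells of E6.

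The share of all members also differed between W+ and W- cells of E6. It was 19.6% in W+ cells (19.49 to 19.63) and 21.3% in W- cells (21.26 to 21.31), so the W+ cells were closer to E4 than to the rest of their own library. The 3 Z members made up 0.657% of UMIs in W+ cells and 1.02% in W- cells. The other 65 members made up 18.9% in W+ cells and 20.3% in W- cells, and 61 of the 67 members past the filter lay below 0, with a median log2 ratio of -0.10 against 0.03 for all genes. PRRX1+ cells made up 44.3% of W+ cells and 58.5% of W- cells. In PRRX1+ cells alone the shares were 19.7% in W+ and 21.4% in W- cells. The median depth was 1881 UMIs in W+ and 2270 UMIs in W- cells, and its part in the difference was not tested.

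Other members, RPLP0 first among them, had their highest level at E6 and similar levels at E4 and E10. RPLP0, the protein that anchors the stalk to the large subunit, had 904 CPM at E4 (891 to 917), 1642 CPM at E6 (1617 to 1667) and 881 CPM at E10 (871 to 891). Its log2 ratio was 0.86 at E6 over E4 and -0.90 at E10 over E6, the only fall past the limit between those stages. RPS26, a small-subunit protein at the mRNA exit, had 2795, 4007 and 2835 CPM at E4, E6 and E10. RPL4, a tunnel protein of the large subunit, had 1046, 1449 and 1081 CPM at E4, E6 and E10. These 2 stayed under 1.5-fold, but were past it at E6 over E4 relative to the median gene. At E6 RPLP0 had 1591 CPM in W+ cells and 1649 CPM in W- cells. Its level at E6 was 1643 CPM in PRRX1+, 1732 CPM in PAX7+, 1981 CPM in MYOG+ and 1654 CPM in EPCAM+ cells, against 761 to 1023 CPM in the classes at E4 and 752 to 1005 CPM at E10. Free RNA had the same pattern, with 708, 1314 and 782 CPM of RPLP0 in barcodes of 10 to 100 UMIs at E4, E6 and E10. Outside the members FAU, which codes for the small-subunit protein RPS30, had 1297, 1827 and 1232 CPM, and the initiation-factor gene EIF3K 47.4, 126 and 36.7 CPM at E4, E6 and E10.

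The stalk gene RPLP1 was higher at each later stage, with a log2 ratio of 0.35 at E6 over E4 and 0.21 at E10 over E6. The sum, 0.56 at E10 over E4, stayed just under the limit, and was past it with mitochondrial genes out of the total (0.60). At E10 against E4 RPL7L1, a paralog of the large-subunit protein RPL7, was the only member lower past the limit, with 298 CPM at E4 (290 to 305), 206 CPM at E6 (197 to 215) and 178 CPM at E10 (174 to 183). Its log2 ratio was -0.74, or -0.48 and no longer past the limit relative to the median gene. Among small-subunit genes under the limit, RPS12 had 3399, 3581 and 4279 CPM at E4, E6 and E10, while RPS13 had 2574, 2409 and 2044 CPM and RPS3A 3726, 3405 and 3044 CPM.

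Other lists of genes for translation were compared at E10 against E4, where 33.9% of all genes were past 1.5-fold (21.3% lower) and the median log2 ratio of all genes was -0.25. Of 30 ribosome biogenesis genes 13 were lower and 0 higher, with a median of -0.56. NOP14, which processes small-subunit precursors, was lowest, at -1.11. Of 53 genes for proteins of the mitochondrial ribosome 18 were lower and 0 higher, with a median of -0.53. That is 34.0% past the limit, against 33.9% of all genes in either direction and 21.3% lower. Of 35 translation factor and TOP genes 3 were lower and 0 higher, with a median of -0.17, and the elongation factor gene EEF1A1 had 7583, 7470 and 7674 CPM at E4, E6 and E10. Of ribosomal genes outside the rule, RPSAP58 had a log2 ratio at E10 over E4 of -0.38, FAU of -0.07 and RACK1 of -0.01.

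Cells were then grouped by a UMI of a marker: PRRX1 (limb connective tissue), PAX7 (muscle progenitors), MYOG (differentiating muscle), CDH5 (endothelium) and EPCAM (ectoderm). At E10 the other markers went with the label most fully in CDH5+, EPCAM+ and MYOG+ cells. The 6 other endothelial markers were over 2-fold higher in CDH5+ cells than in the remaining cells. So were 8 of 8 ectodermal markers in EPCAM+ cells and 8 of 8 myocyte markers in MYOG+ cells. In PRRX1+ cells 3 of the 10 other connective tissue markers were over that limit, and in PAX7+ cells 2 of 3 progenitor markers. At E4 the counts were 4 of 10 (PRRX1+), 3 of 3 (PAX7+), 6 of 6 (CDH5+) and 5 of 8 (EPCAM+). At E6 they were 1 of 10 (PRRX1+), 3 of 3 (PAX7+), 7 of 8 (MYOG+) and 8 of 8 (EPCAM+). The connective tissue markers at E6 summed to 2583 CPM in PRRX1+ and 2340 CPM in the remaining cells. None of the 5 markers was found in 561, 1590 and 17575 cells at E4, E6 and E10. EPCAM+ cells were mixed, since 50% of them at E4, 49.1% at E6 and 10.1% at E10 also had a PRRX1 UMI. Among all cells a PRRX1 UMI was found in 87.2%, 56.6% and 23.7% at E4, E6 and E10. Of PAX7+ cells 26.7%, 28.9% and 12.8% also had a PRRX1 UMI at E4, E6 and E10. Of MYOG+ cells 16.7% at E6 and 5.28% at E10 also had a PAX7 UMI. Such cells count in both classes of a comparison. No E4 cell had a MYOG UMI, and the 16 CDH5+ cells at E6 were too few for a comparison of genes. In the comparisons below the percentage of all genes takes in genes down to a mean of 50 CPM, while most members lie far higher. That percentage is not matched in level, and counting error moves low genes more, above all in classes of few cells.

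Muscle progenitors had a higher share than the connective tissue class at E10, a slightly lower one at E4 and a like one at E6. PAX7+ cells had a ribosomal protein share of 19.0% against 19.4% in PRRX1+ cells at E4, 21.2% against 21.2% at E6, and 22.5% against 20.6% at E10. Median UMIs per cell were 4643, 3625 and 1432.5 in PAX7+ and 3717, 2496.5 and 1238 in PRRX1+ cells at E4, E6 and E10. Thinning the cells also changed which cells were in a class: at E4 it left 11 of 45 PAX7+ and 3439 of 4565 PRRX1+ cells. The thinned values thus mix depth with the choice of cells, and the part of depth in the difference was not tested. The difference of PAX7+ minus PRRX1+ in percentage points was -0.421 (-0.588 to -0.254), 0.0106 (-0.0866 to 0.108) and 1.85 (1.80 to 1.90) at the 3 stages. The E4 value was -1.12 with the cells thinned to 1000 UMIs, which left 11 PAX7+ cells, and -1.23 with at least 2 marker UMIs. The E6 value was 0.425 with thinned cells and -0.267 in cells of at most 10% mitochondrial UMIs. At E10 59 of 66 members had a higher level in PAX7+ cells, but the median log2 ratio was only 0.11, near the 0.08 of all genes. No member was past 1.5-fold at E4, E6 or E10, against 18.8%, 14.8% and 19% of all genes.

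Within the small shift at E10 RPL22L1 and RPLP1 stood highest of the members. RPL22L1, the paralog of the large-subunit protein RPL22, had 1410 CPM in PAX7+ and 1039 CPM in PRRX1+ cells at E4, and 1344 CPM in PAX7+ and 1029 CPM in PRRX1+ cells at E10. At E6 the values were 1300 CPM in PAX7+ and 1217 CPM in PRRX1+ cells. RPLP1 at E10 had 13663 CPM in PAX7+ cells (13543 to 13784) and 10676 CPM in PRRX1+ cells (10608 to 10744). The biogenesis genes differed more: 5 of 31, 16 of 32 and 10 of 28 were past 1.5-fold higher in PAX7+ than in PRRX1+ cells at E4, E6 and E10 (10.6%, 7.51% and 7.91% of all genes), with NPM3, a nucleolar histone chaperone, highest at each stage (log2 ratio 2.61, 2.60 and 1.35).

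Differentiating muscle lay above the progenitors at E6 and below them at E10. MYOG+ cells had a share of 22.2% against 21.2% in PAX7+ cells at E6 and 21.5% against 22.5% at E10. MYOG+ minus PAX7+ was 1.03 points (0.813 to 1.25) at E6, against -1.01 points (-1.09 to -0.939) at E10. The E6 value rests on 54 MYOG+ cells, and with every cell thinned to 700 UMIs, which left 20 MYOG+ and 63 PAX7+ cells, it was -0.69. At E6 no member was past 1.5-fold, against 27.1% of all genes. At E10 1 was, RPL26 with 52.4 CPM in MYOG+ and 79.8 CPM in PAX7+ cells, against 20.7% of all genes (10.8% lower). RPS28, a small-subunit protein, was the member furthest above 0 at E10, with a log2 ratio of 0.34, and RPLP1 kept its high level, with 13637 CPM in MYOG+ cells.

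Endothelial cells had the lowest share of the 5 classes. CDH5+ cells had 18.5% against 19.4% in PRRX1+ cells at E4, a difference of -0.906 points (-1.18 to -0.635) over 21 CDH5+ cells. At E10 they had 17.3% against 20.6%, a difference of -3.31 points (-3.47 to -3.15) over 175 CDH5+ cells. At E10 60 of 66 members were lower in CDH5+ cells, with a median log2 ratio of -0.26 against 0.07 for all genes, and 2 were past 1.5-fold, against 33.7% of all genes (14.2% lower): RPL22L1 (-0.65) and the large-subunit gene RPL29 (-0.61). RPL7L1 (0.48) and RPS28 (0.32) lay on the other side. At E4 2 members were higher past the limit, RPL26 and RPS19BP1, on 14 and 10 UMIs in CDH5+ cells, against 41.3% of all genes (24.8% higher). Mitochondrial transcripts took 10.9% of UMIs in CDH5+ and 7.18% in PRRX1+ cells at E10. With mitochondrial genes out of the total the difference was -2.78 points, and with only cells of at most 10% mitochondrial UMIs it was -2.19.

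The EPCAM+ class, which was mixed and held connective tissue transcripts at every stage, had a higher share than the connective tissue class throughout. Connective tissue markers in EPCAM+ cells summed to 985, 1868 and 2911 CPM at E4, E6 and E10. In the remaining cells they summed to 1301, 2512 and 5465 CPM. EPCAM+ cells had 20.2% against 19.4% in PRRX1+ cells at E4, 22.6% against 21.2% at E6 and 22.6% against 20.6% at E10. The difference of EPCAM+ minus PRRX1+ was 0.760, 1.36 and 1.98 points at the 3 stages. With only cells that had UMIs of exactly 1 of the 5 markers it was 1.57 at E4 and 2.66 at E6. With the cells thinned to equal UMIs, which left 40, 47 and 81 EPCAM+ cells, it was 0.395, 3.32 and 1.30 at the 3 stages. No member was past 1.5-fold at E4 or E6, against 6.72% and 9.09% of all genes. At E10 1 was, RPL7L1, with 265 CPM in EPCAM+ and 175 CPM in PRRX1+ cells, against 26.7% of all genes (12.5% higher).

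**Figure D4:**
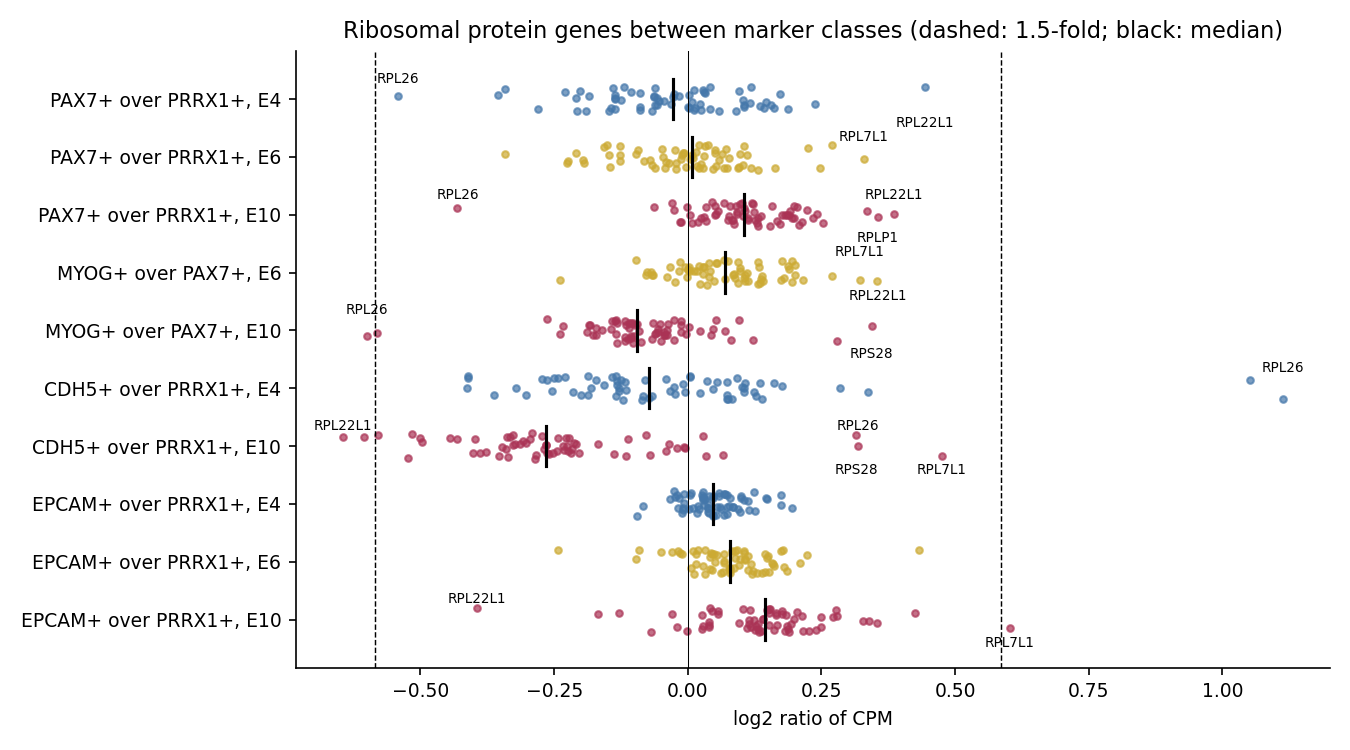
Log2 ratio of CPM (x axis) of each member past the level filter in the 10 marker class comparisons (y axis, coloured by stage), with the median of the members in black and the 1.5-fold limits dashed. Most members lie near their median, the CDH5+ against PRRX1+ comparison at E10 has its median at -0.26, and RPL22L1, RPL7L1, RPL26, RPS28 and RPLP1 are the members most often at the ends.

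The paralogs were also set against their partners. RPL22L1 gave 33.3%, 35.4% and 35.9% of the UMIs of the RPL22L1 and RPL22 pair at E4, E6 and E10. At E10 it gave 36.4% in MYOG+ (35.0 to 37.7), 38.3% in PAX7+ (37.5 to 39.2), 25.2% in CDH5+ (21.7 to 28.9), 23.3% in EPCAM+ (20.9 to 25.9) and 35.0% in PRRX1+ cells (34.4 to 35.6). The endothelial and ectodermal classes were thus lowest, and their intervals overlap each other but none of the other classes'. RPL7L1 gave 8.03%, 6.33% and 5.27% of its pair with RPL7. At E10 it gave 6.17% in MYOG+ (5.55 to 6.82), 4.78% in PAX7+ (4.41 to 5.16), 7.85% in CDH5+ (5.94 to 10.1), 7.25% in EPCAM+ (5.86 to 8.84) and 5.05% in PRRX1+ cells (4.81 to 5.30).

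RPL26L1 was the main copy of its pair: it had 2758, 3060 and 2971 CPM, and RPL26 84.7, 98.7 and 100.1 CPM, at E4, E6 and E10. RPL26 gave 1.69% of the pair in MYOG+ cells (1.35 to 2.07), 2.37% in PAX7+ cells (2.11 to 2.66) and 3.36% in PRRX1+ cells (3.15 to 3.57) at E10. The copies are alike in sequence, so their split is uncertain. RPL3L, which replaces RPL3 in striated muscle of mouse and human, had 5, 1 and 6 UMIs at E4, E6 and E10, of which 1 at E6 and 1 at E10 were in MYOG+ cells, against 46213, 22516 and 64265 UMIs of RPL3. RPS27L had 117, 119 and 156 CPM, and RPL36AL 2809, 3209 and 2839 CPM, at E4, E6 and E10.

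**Figure D5:**
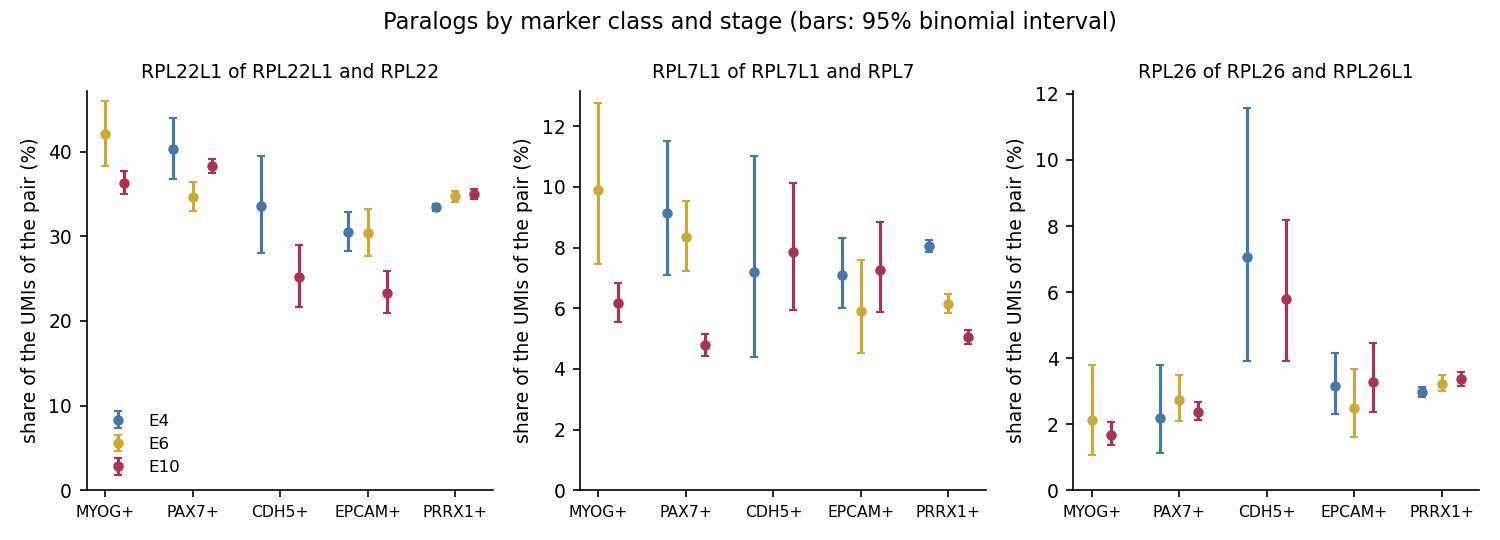
Share of a pair's UMIs (y axes, %, from 0) given by RPL22L1, RPL7L1 and RPL26 in each marker class (x axes) and stage (colours), with 95% binomial intervals. RPL22L1 is lowest in CDH5+ (25.2%) and EPCAM+ cells (23.3%) at E10, and RPL26 is lowest in MYOG+ cells (1.69%) at E10.

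Cells with a low ribosomal protein share were mostly those rich in mitochondrial or haemoglobin transcripts. These transcripts enter the same total, so a large share of them lowers the ribosomal protein share by construction. A share under 10% was found in 32 E4 cells (0.611%), 206 E6 cells (4.86%) and 1766 E10 cells (6.45%). Their median mitochondrial share was 32.3%, 37.5% and 22.9% at E4, E6 and E10, against 6.05%, 7.37% and 7.40% in the remaining cells. At E10 347 of them were among the 472 cells with over 10% haemoglobin UMIs, whose median ribosomal protein share was 6.16%. Only 0, 3 and 107 of the low cells at E4, E6 and E10 had neither a mitochondrial nor a haemoglobin share over 10%. Of all cells over 10% mitochondrial UMIs, 30 of 172, 202 of 1114 and 1338 of 7113 were low at E4, E6 and E10. Spearman's rho of the ribosomal protein and mitochondrial shares per cell was 0.30, -0.25 and -0.24 at E4, E6 and E10. With mitochondrial UMIs out of the ribosomal protein share's total it was 0.39, -0.07 and -0.08.

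The share also ran with depth, in opposite directions at E4 and E10. With the cells of a stage ranked by UMIs and split into 4 equal groups, from fewest to most UMIs, it was 20.4, 20.1, 19.5 and 18.6% in E4 cells, 19.0, 21.4, 21.4 and 21.2% in E6 cells and 17.3, 19.9, 20.7 and 20.8% in E10 cells. In PRRX1+ cells alone the groups with the fewest and the most UMIs had 20.6 and 18.6% at E4 and 18.6 and 21.0% at E10. Spearman's rho of share and UMIs per cell was -0.29, 0.11 and 0.24 at the 3 stages, over cells that share a library and whose UMIs enter both measures.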

How the data were processed

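The authors deposited unfiltered UMI counts of every gene and barcode in 3 libraries, made with the 10x 3′ v3 kit and Cell Ranger 3.0.2 on GRCg6a. Members, gene lists and UMI minima were chosen with earlier results of these data known. UMIs were summed over cells, and a ratio was taken between CPM with a prior of 0.5 UMI where the mean was at least 50 CPM. With 1 library per stage a limit of 1.5-fold stands in for a test, and the percentage of all genes past it is the background. The background was not matched to the members in level. Members named are the highest and lowest by level and ratio, those far from the members' median, paralogs, and the ends of each class comparison. Marker classes (at least 1 UMI) can overlap. No doublet caller was run. Summation and ratios were tested on simulated data. Chromosome Z and W membership came from the RefSeq table of GRCg7b by symbol: 11535 of 24356 genes and 63 of 68 members matched. RPS6, RPL17, RPL37, RPLP0 and the W split were followed up after their values were seen. Python 3.11.15, numpy 2.4.6, scipy 1.17.1 and matplotlib 3.10.9 were used.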

Additional observations from a re-analysis of the deposited data

Results flagged for a closer look

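The difference in ribosomal protein share between muscle progenitors and connective tissue cells changed sign over the stages. PAX7+ minus PRRX1+ was -0.421, 0.0106 and 1.85 percentage points at E4, E6 and E10. PAX7+ cells had a higher median of UMIs than PRRX1+ cells at each stage. MYOG+ minus PAX7+, differentiating muscle against progenitors, was 1.03 points at E6 and -1.01 at E10. With the cells thinned to equal UMIs it was -0.69 at E6 and -1.48 at E10, with no change of sign. Thinning left 20 MYOG+ cells at E6, so it changed depth and the cells counted together. With 1 library per stage, the difference between stages was not tested in either case. At E4 the PAX7+ class had 45 cells, and at E6 the MYOG+ class had 54.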

How the results depend on the processing

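No paired analysis was possible because each stage is 1 library. The E6 share was above the E4 and E10 shares in every alternative except E6 W+ cells alone, while E4 and E10 changed order with the mean of the share per cell. At E4, E6 and E10 the share was 19.4, 21.3 and 20.7% with a UMI minimum 2 times as high, 19.4, 21.6 and 20.9% in cells of at most 10% mitochondrial UMIs, 20.6, 23.0 and 22.0% without mitochondrial genes in the total, and 19.7, 20.7 and 19.6% as the mean per cell. It was 21.2 and 20.7% at E6 and E10 with 1000 UMIs as the minimum, 19.4 and 20.5% at E4 and E10 without haemoglobin genes in the total, and 19.5 and 20.1% at E4 and E10 without the 5% of cells with the most UMIs. Of alternatives chosen after seeing the data, cells of at most 10% mitochondrial and 10% haemoglobin UMIs gave 19.4, 21.6 and 21.2%, and E6 W+ cells alone 19.6%.

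For PAX7+ minus PRRX1+ the difference in points was -1.23, 0.196 and 2.27 at E4, E6 and E10 with at least 2 marker UMIs, and -1.12, 0.425 and 2.05 after thinning. Thinning left 11 PAX7+ cells at E4, and in every class it also changed which cells were counted. Cells with exactly 1 marker gave 0.125 and 1.99 at E6 and E10, and a total without mitochondrial genes -0.181 and 2.15. At E6 it was -0.267 in cells of at most 10% mitochondrial UMIs, and at E10 1.75 with the higher UMI minimum. For MYOG+ minus PAX7+ it was 1.505 and -0.726 at E6 and E10 with at least 2 marker UMIs, and -0.69 and -1.48 after thinning, so the E6 sign turned with thinning. At E10 it was -0.789 with the higher minimum, -0.902 with exactly 1 marker and -0.707 with at most 10% mitochondrial UMIs. CDH5+ minus PRRX1+ was -1.29 at E4, where 16 CDH5+ cells were left, and -4.48 at E10 after thinning. At E10 it was -2.96 with the higher minimum, -3.66 with exactly 1 marker, -3.63 with at least 2 marker UMIs, -2.19 with at most 10% mitochondrial UMIs and -2.78 without mitochondrial genes in the total. EPCAM+ minus PRRX1+ was 1.45, 2.03 and 2.49 at E4, E6 and E10 with at least 2 marker UMIs, and 0.395, 3.32 and 1.30 after thinning. Exactly 1 marker gave 1.57 and 2.66 at E4 and E6, and a total without mitochondrial genes 0.886 and 1.56. The causes were not tested.

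Counts of members past the limit moved as follows. At E6 against E4 (3) there were 5 relative to the median gene, 1 at 2-fold and 1 with E6 W+ cells alone. At E10 against E6 (1) there were 0 at 2-fold and 3 with E6 W+ cells. For E6 W+ cells against E4, 322 of all 3244 genes compared were higher and 335 lower. For E10 against E6 W+ cells, 240 of 3177 were higher and 312 lower. For the other alternatives here the percentage of all genes past the limit is not given. At E10 against E4 (3) there were 6 relative to the median gene, 5 without mitochondrial genes in the total and 1 at 2-fold. CDH5+ against PRRX1+ (2 at each stage) had 0 at E4 with a mean of at least 200 CPM, and 0 at 2-fold and 4 with exactly 1 marker at E10. MYOG+ against PAX7+ at E10 (1) had 0 with at least 200 CPM, 0 at 2-fold and 2 with exactly 1 marker. EPCAM+ against PRRX1+ at E10 (1) had 0 at 2-fold. No ratio of a named member that was past 1.5-fold changed sign. Members under the limit could change sign relative to the median gene, among them RPS13 at E6 over E4, RPL17 and RPLP2 at E10 over E6, and RPLP0, RPS19, RPS2, RPL39 and RPL22 at E10 over E4. Few cells stand behind CDH5+ at E4 (21 cells) and MYOG+ at E6 (54 cells).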
